A study of Homo sapiens with 12 samples.

Results

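The genes described here are those for splicing factors and heterogeneous nuclear ribonucleoproteins (hnRNPs) in 2 ovarian cancer cell lines exposed to THZ1, a covalent inhibitor of CDK7 that also acts on CDK12 and CDK13, all kinases of transcription. They were chosen by symbol: every row of the deposited tables named SRSF, HNRNP, SF3A, SF3B, SNRP or U2AF followed by its letters and numbers, which gave 60 of 23621 gene rows. The symbol rule does not take in hnRNPs listed under other names, such as SYNCRIP, RALY, HNRPDL and HNRPLL. RNA-seq was performed on KURAMOCHI (Ku) and COV362 (Cov) cells, both human ovarian cancer lines labelled as untransduced, after 6 hr in the vehicle DMSO, in 50 nM THZ1 or in 250 nM THZ1, with 2 libraries per line and condition and 12 libraries in all. Ku cells were grown in RPMI and Cov cells in DMEM, both with fetal bovine serum, so the line and the medium cannot be told apart. RNA was brought to equal cell numbers and mixed with ERCC spike-in transcripts, and the deposited FPKM (fragments counted relative to transcript length and library size) had been scaled by the authors to those spike-ins, in a separate table for each line. A level therefore reads as RNA per cell and per kilobase of transcript, and levels were not compared by test between the lines. In such bulk libraries, fewer transcripts in every cell and none in some of the cells cannot be told apart. The study describes treatment in duplicate before RNA isolation, and the labels do not say whether the duplicates were grown as separate cultures, so the p-values measure only the spread between these libraries, which may be technical.

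Introns are removed from pre-mRNA by the spliceosome, which is built from small nuclear ribonucleoproteins (snRNPs) that carry a ring of Sm proteins and a few proteins of their own. U2AF reads the 3′ splice site, the SF3A and SF3B complexes hold the U2 snRNP on the branch point, and SR proteins, which share a domain rich in arginine and serine, mostly favour the use of nearby exons, whereas many hnRNPs oppose it. CDK7 phosphorylates the tail of RNA polymerase II and activates other kinases, CDK12 and CDK13 phosphorylate the same tail during elongation, and several SR protein genes are known to tune their own level by splicing in an exon that marks the transcript for decay.

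Of the 60 rows, 57 passed 1 FPKM in at least 1 library and are called active, among 14251 active genes. The other 3 are the retrogene-like HNRNPCL1 and the pseudogene rows HNRNPKP3 and SNRPD2P2, which were listed between 0.0783 and 0.133 FPKM in every library, and they were not tested. The active rows comprise 12 SR protein genes, 2 for U2AF, 9 for SF3A and SF3B subunits, 8 for the Sm ring, 4 for proteins of a single snRNP (SNRPA and SNRPC of U1, SNRPA1 and SNRPB2 of U2), 19 for hnRNPs and 3 hnRNP pseudogene rows. Reads of HNRNPA1 can be shared with its near-identical copies HNRNPA1L2, HNRNPA1P10 and HNRNPA1P33, so the levels of all 4 are uncertain. Annotated exons of another gene on the same strand overlap those of HNRNPH2, HNRNPUL2, SNRPN and U2AF1, among others. Without the pseudogene rows, the mean level of the 54 remaining genes in DMSO had a median of 148 FPKM in Ku and 194 FPKM in Cov cells, and ran from SRSF12, at 1.56 and 0.542 FPKM, to SNRPD2 in Ku (638 FPKM) and HNRNPA1 in Cov cells (1143 FPKM).

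The transcription start regions of 4 of these genes are printed because they stand for the range of responses described below. SRSF3 had the lowest log2 fold change of the SR genes in both lines, U2AF1 lay far below its partner U2AF2, HNRNPU was the single gene whose 50 nM libraries lay above DMSO in Ku cells, and SF3B14 (now SF3B6) had the value nearest to 0 in Ku cells at 250 nM. Each run holds the 150 bases before the RefSeq start site on the strand of the gene, 5′ to 3′, with positions from GRCh38.p14, which is not the build of the expression tables. Capitals mark matches on either strand to 5 motifs, which do not contain one another. The TATA box was searched as TATAAA, the box named for CCAAT by those letters, the motif of ETS factors as CCGGAAG, the GC box as GGGCGG and the E-box as CACGTG.
SRSF3 (chr6:36594212-36594361, plus strand): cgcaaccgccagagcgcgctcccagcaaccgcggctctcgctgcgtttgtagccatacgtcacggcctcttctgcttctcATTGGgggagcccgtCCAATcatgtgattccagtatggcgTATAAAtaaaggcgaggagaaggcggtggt
U2AF1 (chr21:43107571-43107720, minus strand): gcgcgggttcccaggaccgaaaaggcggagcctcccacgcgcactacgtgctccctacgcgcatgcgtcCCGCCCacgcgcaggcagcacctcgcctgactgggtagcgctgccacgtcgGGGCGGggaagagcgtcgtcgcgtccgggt
HNRNPU (chr1:244864544-244864693, minus strand): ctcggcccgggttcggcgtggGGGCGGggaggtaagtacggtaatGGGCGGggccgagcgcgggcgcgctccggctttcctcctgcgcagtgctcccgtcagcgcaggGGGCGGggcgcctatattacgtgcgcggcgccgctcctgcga
SF3B6 (chr2:24076327-24076476, minus strand): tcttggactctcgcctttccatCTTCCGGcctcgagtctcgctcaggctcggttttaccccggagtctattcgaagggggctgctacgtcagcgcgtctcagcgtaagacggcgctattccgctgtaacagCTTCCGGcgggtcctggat
The SRSF3 run holds a TATA box that begins 30 bases before the start and a pair of CCAAT boxes at 70 and 55 bases, the U2AF1 and HNRNPU runs hold GC boxes, and the SF3B6 run holds ETS motifs at 128 and 19 bases. RefSeq start regions of 300 bases were found for 51 of the 60 genes, with 73 start regions between them. The ETS motif occurred in 27.4% of these and in 10.3% of all 35116 start regions in the RefSeq table, the GC box in 53.4% and 45%, the CCAAT box in 37% and 34.6%, the E-box in 11% and 7.26%, and the TATA box in 9.59% and 11.5%. A match is a description of the letters and not a bound site.

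The labelled identity of the cells was checked with markers. Of 12 markers of serous ovarian epithelium, 9 were above 1 FPKM in DMSO in Ku cells (CDH1, ESR1 and MUC16 were not) and 11 in Cov cells (WT1 was not), and their levels summed to 4863 to 5105 and 3730 to 4158 FPKM. Markers of leukocytes summed to at most 2.18 FPKM, of fibroblasts to at most 12.5 FPKM and of endothelium to at most 13.4 FPKM. Above 1 FPKM in DMSO were 3 of 4 endothelial markers in Ku and 2 of 4 in Cov cells. The same held for 2 of 5 and 1 of 5 fibroblast markers, and for 1 of 5 and 0 of 5 leukocyte markers. The spike-in transcripts of a library deviated from those of DMSO by a median of at most 0.0451 on the log2 scale. The FPKM had already been scaled to these same spike-ins, so a small deviation was set by that step and is no check of the scale. Read counts are not part of the tables, so the depth behind each value is unknown.

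On the spike-in scale THZ1 lowered nearly all of these transcripts at 250 nM, and the SR protein genes as a class lay further below DMSO than the Sm ring. A gene was called when the log2 fold change of FPKM + 1 was beyond 0.5 with an adjusted p under 0.001 in limma, with Benjamini-Hochberg adjustment over all active genes. At 250 nM, 47 of the 57 active rows were called lower than DMSO in Ku cells, where 68.6% of all active genes were, and 56 in Cov cells, against 84% of all active genes. At 50 nM, 11 were called lower in Ku cells (11.3% of all active genes) and 47 in Cov cells (70.5%). From 50 to 250 nM, 28 fell in Ku (36%) and 15 in Cov cells (24.4%). By limma 0 of the 57 rows were called higher in any of these 6 comparisons, against 0.0842% of all active genes at 50 nM and 0.0491% at 250 nM in Ku, 0.0772% and 0.105% in Cov cells, and 0.0421% in Ku and 0.0842% in Cov cells from 50 to 250 nM. At an unadjusted p under 0.05 1 was higher, HNRNPU in Ku cells at 50 nM. The median log2 fold change of the 57 rows at 250 nM was -1.04 in Ku and -1.30 in Cov cells, beside -1.11 and -1.31 for all active genes. That closeness holds for a pseudocount of 1 and a minimum of 1 FPKM on the spike-in scale, and other choices move the rows above or below all genes. Under equal-median scaling their medians were 0.86 in Ku and 0.75 in Cov cells beside 0.29 and 0.31 for all active genes, and under median-of-ratios scaling 0.35 and 0.29 beside -0.0009 and 0.011. A fold change on the log2(FPKM + 1) scale understates the change of weakly expressed genes.

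Several of these counts fell when 1 library was left out, also when that library was outside the comparison and the fold changes stayed the same. The median log2 fold change of the 57 rows remained -0.38 for Ku at 50 nM without either 250 nM library. For 250 against 50 nM in Cov cells it remained -0.48 without either DMSO library. Leaving out any 1 of the 6 Ku libraries left 0 rows called lower at 50 nM by limma, where 0.0421% to 0.919% of all active genes were, with 32 to 40 lower at an unadjusted p under 0.05. For 250 against 50 nM in Ku cells the count was 5 and 10 without replicate 1 or 2 of 50 nM and 7 and 8 without replicate 1 or 2 of 250 nM, with 5.55% to 11.2% of all active genes called. In Cov cells at 50 nM it was 19 without DMSO replicate 2 (30.3% of all active genes) and 28 without 50 nM replicate 1 (59.6%), and for 250 against 50 nM it was 7 without either DMSO library, 6 without 50 nM replicate 2 and 5 and 4 without replicate 1 or 2 of 250 nM, with 10.7% to 18.7% of all active genes called. With 2 libraries against 2, the smallest p that exact permutation of 1 gene allows is 0.33, so all calls depend on limma's pooled estimate of the spread.

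Most of the directions given here belong to the spike-in scale. With the median FPKM of active genes set equal in all libraries, limma called 0 rows lower (4 at an unadjusted p under 0.05) and 29 higher at 250 nM for Ku and 1 lower and 34 higher for Cov, while the median of all active genes stood at 0.29 and 0.31. Of all active genes, 11.6% were then called lower and 26.9% higher for Ku, and 11.3% and 26.4% for Cov. Under a median-of-ratios scaling 6 were lower and 11 higher in the Ku line, against 5 lower and 11 higher in the Cov line, beside 19% lower and 11.1% higher of all active genes for Ku and 18.9% and 8.57% for Cov. The 4 genes HNRNPF, SRSF3, SRSF4 and SRSF8, named after their values were seen, had a log2 fold change below 0 at 250 nM in both lines under all 3 scalings. The pseudocount and the minimum FPKM also move the background, since most genes are expressed at lower levels than these: with 0.1 added in place of 1, the medians of the 57 rows were -1.09 and -1.32 beside -1.39 and -1.55 for all active genes. With a minimum of 10 FPKM the medians of the 56 rows left were -1.05 and -1.31 beside -1.29 and -1.50. Without a minimum FPKM the medians of all 60 rows were -1.02 and -1.27 beside -0.50 and -0.70 for all genes, on the other side of the background, which then includes genes hardly expressed.

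**Figure D1:**
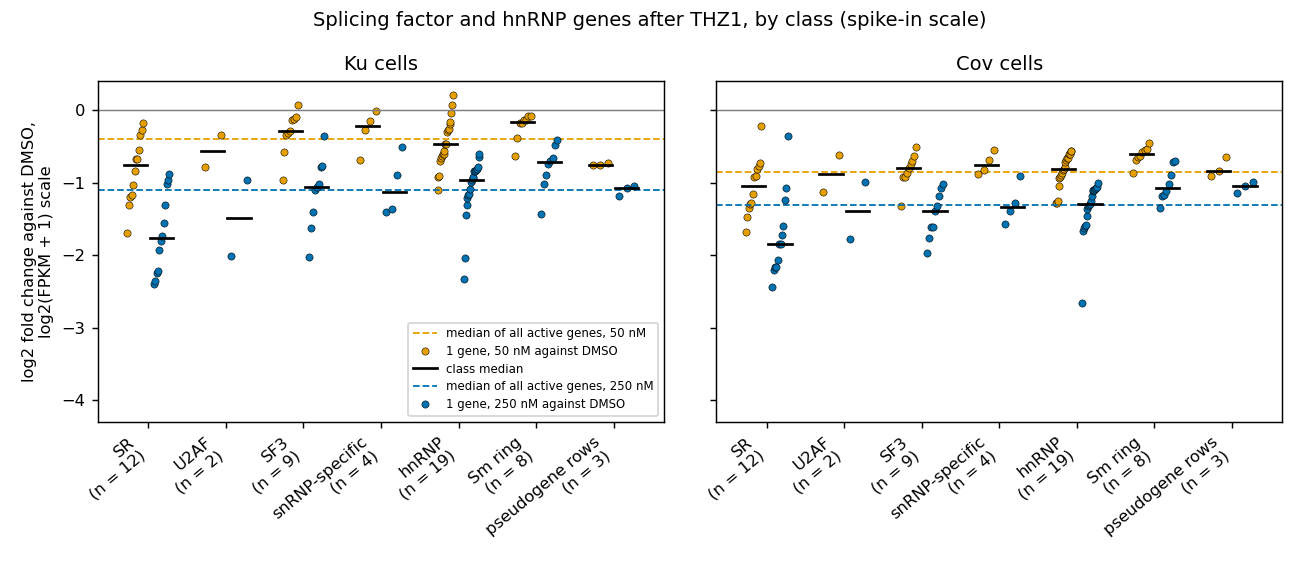
Log2 fold change against DMSO on the log2(FPKM + 1) scale (y axis, spike-in scale) of each active row by class (x axis), at 50 nM (orange) and 250 nM (blue), in Ku (left) and Cov cells (right). Black bars are class medians and dashed lines the medians of all active genes. At 250 nM the SR class lies lowest, with medians of -1.77 in Ku and -1.85 in Cov cells, and the Sm ring highest of the classes without pseudogene rows, at -0.72 and -1.07. Under equal-median scaling the class medians at 250 nM lie above 0, with the SR class still below the median of all genes and the Sm ring still above it.

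The SR class had the lowest median. At 250 nM its median was -1.77 in Ku and -1.85 in Cov cells, below the median of all active genes by 0.66 and 0.54, and 10 of 12 genes in Ku (68.6% of all active genes) and 11 of 12 in Cov cells (84%) were called lower. SRSF11 and SRSF12 in Ku cells and SRSF12 in Cov cells did not pass. Relative to the median of all active genes the SR median stayed lower under equal-median scaling (-0.20 in Ku, -0.13 in Cov) and under median-of-ratios scaling (-0.33 and -0.27), although its own direction turned to 0.09 and 0.18 under equal-median scaling. On the spike-in scale the difference was -0.40 and -0.32 with a pseudocount of 0.1 and -0.51 and -0.35 with a minimum of 10 FPKM (11 genes). Without a minimum FPKM it was -1.27 and -1.15, when the median of all genes includes those hardly expressed.

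SRSF3 (chr6:36562130-36573377 in GRCh37), the smallest of the SR proteins and a regulator of splicing and mRNA export, fell most steeply at the low dose. It was measured at 184 and 170.1 FPKM in DMSO, 58.1 and 50.0 at 50 nM and 33.1 and 32.2 at 250 nM in Ku cells, and at 228 and 260.1 FPKM in DMSO, 71.5 and 79.4 at 50 nM and 46.0 and 41.9 at 250 nM in Cov cells. The 3 conditions did not overlap in either line, and most of the loss was present at 50 nM. Its log2 fold change was -1.70 ± 0.0887 (SE, adjusted p = 2.23e-04) at 50 nM and -2.40 ± 0.0887 (SE, adjusted p = 7.58e-06) at 250 nM in Ku cells, and -1.68 ± 0.10 (SE, adjusted p = 2.25e-05) and -2.44 ± 0.10 (SE, adjusted p = 1.05e-06) in Cov cells. At 250 nM, 18.4% of the DMSO level was left in Ku and 18.0% in Cov cells.

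SRSF1 and SRSF2, the SR proteins long studied as activators of constitutive splicing, fell in both lines at 250 nM. SRSF1 was at 106 and 97.4 FPKM in DMSO, 45.9 and 41.5 at 50 nM and 24.5 and 27.3 at 250 nM in Ku cells, and at 122 and 138 FPKM in DMSO, 47.6 and 52.8 at 50 nM and 29.8 and 30.3 at 250 nM in Cov cells. SRSF2 was at 242 and 239 FPKM in DMSO, 169 and 158 at 50 nM and 66.2 and 70.4 at 250 nM in Ku cells, and at 274 and 303 FPKM in DMSO, 159.6 and 168 at 50 nM and 83.4 and 90.8 at 250 nM in Cov cells. In both lines the 3 conditions kept apart for both genes, with SRSF1 nearer to its final level at the low dose than SRSF2. The log2 fold change at 250 nM was -1.93 ± 0.0899 (SE, adjusted p = 1.16e-05) for SRSF1 and -1.80 ± 0.0633 (SE, adjusted p = 7.03e-06) for SRSF2 in Ku cells. The Cov values were -2.07 ± 0.0946 (SE, adjusted p = 1.23e-06) and -1.72 ± 0.0903 (SE, adjusted p = 1.94e-06).

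SRSF4 and SRSF5 had log2 fold changes nearer to 0 at 50 nM than SRSF3 did. SRSF4, one of the longer SR proteins, was at 75.2 and 70.4 FPKM in DMSO, 62.6 and 57.1 at 50 nM and 11.3 and 15.7 at 250 nM in Ku cells, and at 33.3 and 35.1 FPKM in DMSO, 17.2 and 17.9 at 50 nM and 7.04 and 6.27 at 250 nM in Cov cells. In Ku cells its 50 nM libraries were just under those of DMSO, and the drop came between 50 and 250 nM. The log2 fold change in Ku cells was -0.28 ± 0.15 (SE, adjusted p = 0.162) at 50 nM, which was not called, and -2.36 ± 0.15 (SE, adjusted p = 2.54e-05) at 250 nM. For Cov it was -0.93 ± 0.0931 (SE, adjusted p = 8.30e-05) at 50 nM and -2.20 ± 0.0931 (SE, adjusted p = 1.05e-06) at 250 nM. SRSF5 was at 128 and 119 FPKM in DMSO, 83.8 and 70.5 at 50 nM and 21.7 and 30.3 at 250 nM in Ku cells, and at 154 and 179 FPKM in DMSO, 83.5 and 92.1 at 50 nM and 49.3 and 41.6 at 250 nM in Cov cells. Its 250 nM libraries lay well under the others in both lines, with a log2 fold change of -2.22 in Ku and -1.85 in Cov cells, both called.

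Within a library, SRSF4 changed against SRSF9, an SR protein with a short arginine-serine domain, a ratio that no scaling of whole libraries can alter. SRSF4 over SRSF9 was 0.491 and 0.491 in DMSO, 0.530 and 0.496 at 50 nM and 0.144 and 0.215 at 250 nM in Ku cells. The Cov ratio was 0.266 and 0.240 in DMSO, 0.221 and 0.209 at 50 nM and 0.114 and 0.0949 at 250 nM. The ratio was lower in all 250 nM libraries than in all DMSO libraries of the line, and at 50 nM it was just above DMSO in Ku cells but below it in Cov cells. Both genes were picked after their values at 250 nM were seen, so the ratio is a description. SRSF9 itself had among the smallest falls of the class, -0.96 ± 0.0648 (SE, adjusted p = 3.06e-05) in Ku and -1.07 ± 0.10 (SE, adjusted p = 3.29e-05) in Cov cells at 250 nM.

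Of the other SR genes, SRSF8, an intronless relative of SRSF2, kept 16.9% of its DMSO level in Ku and 19.2% in Cov cells at 250 nM, from 19.9 and 18.0 and 24.5 and 26.2 FPKM. SRSF6 kept 33.2% and 21.7%, and SRSF7 kept 29.3% and 27.2%. SRSF10, which acts as a splicing repressor when dephosphorylated, kept 39.9% and 32.3%. All 4 were called lower at 250 nM in both lines. SRSF11 was at 114 and 109.6 FPKM in DMSO, 82.0 and 59.4 at 50 nM and 45.8 and 64.6 at 250 nM in Ku cells. Its replicates were far apart under THZ1 in these cells, the conditions of 50 and 250 nM overlapped, and its fall was called in Cov cells and not in Ku cells (adjusted p = 0.00317). SRSF12 was close to the limit of measurement, with 1.85 and 1.26 FPKM in DMSO, 1.58 and 0.932 at 50 nM and 0.379 and 0.374 at 250 nM in Ku cells, and at or below 0.555 FPKM in every Cov library.

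**Figure D2:**
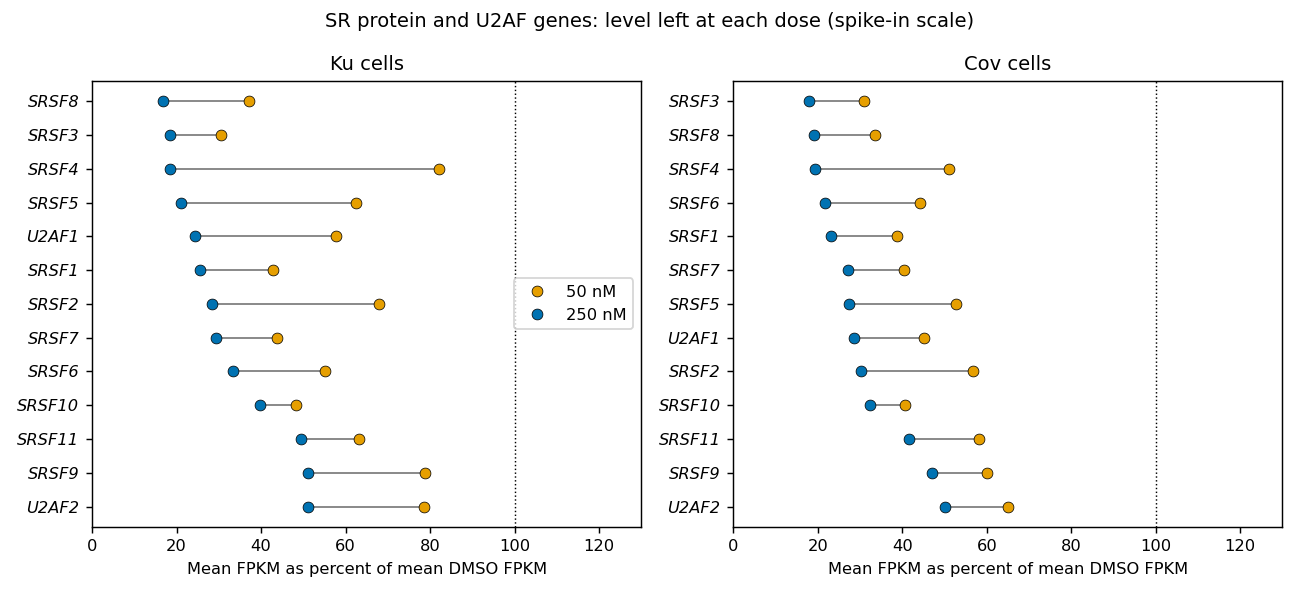
Mean FPKM as percent of the mean DMSO FPKM (x axis, 2 libraries per mean, spike-in scale) at 50 nM (orange) and 250 nM (blue) for 11 SR genes and both U2AF genes (y axis), in Ku (left) and Cov cells (right). SRSF12 is left out for its low level. SRSF4 runs from 82.2% at 50 nM to 18.6% at 250 nM in Ku cells, while SRSF10 moves only from 48.3% to 39.9%. U2AF2 keeps 51% and 50% at 250 nM.

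The subunits of U2AF responded unequally. U2AF1 (chr21:44513066-44527680), which contacts the last bases at the 3′ end of the intron, was at 178 and 172 FPKM in DMSO, 105 and 97.3 at 50 nM and 40 and 45.1 at 250 nM in Ku cells, and at 189 and 215 FPKM in DMSO, 88.6 and 94.3 at 50 nM and 57.8 and 57.9 at 250 nM in Cov cells. U2AF2 (chr19:56165512-56186082), which binds the polypyrimidine tract, was at 158 and 145 FPKM in DMSO, 119.8 and 117 at 50 nM and 76.2 and 78.0 at 250 nM in Ku cells, and at 263 and 288 FPKM in DMSO, 186 and 173 at 50 nM and 129.6 and 146 at 250 nM in Cov cells. For both genes the conditions were ordered by dose in every library, but U2AF1 lost the greater part of its transcript. The log2 fold change of U2AF1 was -0.79 ± 0.0786 (SE, adjusted p = 7.40e-04) at 50 nM and -2.01 ± 0.0786 (SE, adjusted p = 8.20e-06) at 250 nM in Ku cells, and -1.13 ± 0.0908 (SE, adjusted p = 3.76e-05) and -1.79 ± 0.0908 (SE, adjusted p = 1.71e-06) in Cov cells. For U2AF2 at 250 nM it was -0.96 ± 0.0627 (SE, adjusted p = 2.78e-05) in Ku and -1.0 ± 0.0966 (SE, adjusted p = 3.35e-05) in Cov cells.
The ratio of U2AF1 to U2AF2 within a library was 1.13 and 1.19 in DMSO, 0.874 and 0.829 at 50 nM and 0.526 and 0.579 at 250 nM in Ku cells. The same ratio was 0.719 and 0.749 in DMSO, 0.478 and 0.545 at 50 nM and 0.446 and 0.397 at 250 nM in the Cov line. In Ku cells U2AF1 was thus the more abundant transcript per kilobase in DMSO and the less abundant at both doses, and in both lines no treated library reached the ratio of a DMSO library.

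Subunits of SF3A and SF3B had a median log2 fold change of -1.06 in Ku and -1.39 in Cov cells at 250 nM, 0.04 above and 0.08 below those of all active genes, and 8 of 9 in Ku and 9 of 9 in Cov cells were called lower, beside 68.6% and 84% of all active genes. Under equal-median scaling these medians were 0.86 and 0.66, which is 0.58 and 0.35 above all active genes, and under median-of-ratios scaling they lay 0.35 and 0.19 above, and with a pseudocount of 0.1 on the spike-in scale 0.30 and 0.14 above. With a minimum of 10 FPKM they lay 0.23 and 0.11 above. Without a minimum FPKM the difference was -0.56 and -0.69, when the median of all genes includes those hardly expressed. The place of the class against all genes thus depended on these choices and was not settled. SF3B1, the scaffold of SF3B at the branch point, was at 203 and 170.3 FPKM in DMSO, 181 and 160.4 at 50 nM and 102 and 115 at 250 nM in Ku cells, and at 213 and 248 FPKM in DMSO, 115 and 127 at 50 nM and 77.9 and 71.7 at 250 nM in Cov cells. In Ku cells its 50 nM libraries overlapped those of DMSO, whereas in Cov cells they were far below. Its log2 fold change at 250 nM was -0.78 ± 0.11 (SE, adjusted p = 7.52e-04) in Ku and -1.61 ± 0.11 (SE, adjusted p = 4.78e-06) in Cov cells.

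The range of the complex was wide. SF3A2, a subunit of SF3A, had the lowest value in Ku cells, with 85.3 and 82.1 FPKM in DMSO, 55.1 and 56.2 at 50 nM and 18.9 and 20.6 at 250 nM, and a log2 fold change of -2.03 ± 0.0692 (SE, adjusted p = 6.93e-06) at 250 nM. The Cov value was -1.61 ± 0.0991 (SE, adjusted p = 3.61e-06). SF3B4, which touches pre-mRNA upstream of the branch point, was the lowest in Cov cells, with 175 and 197 FPKM in DMSO, 96.9 and 97.5 at 50 nM and 45.2 and 48.2 at 250 nM, and a log2 fold change of -1.97 ± 0.0880 (SE, adjusted p = 1.17e-06), against -1.62 ± 0.0694 (SE, adjusted p = 9.82e-06) in Ku cells. Both genes were separated by dose in every library of the lines named. SF3B14, the subunit p14 that lies next to the branch point adenosine, was at 179 and 168 FPKM in DMSO, 195 and 169 at 50 nM and 143 and 129 at 250 nM in Ku cells, and at 245 and 273 FPKM in DMSO, 169 and 193 at 50 nM and 128 and 117 at 250 nM in Cov cells. Its 50 nM libraries overlapped DMSO in Ku cells and lay below in Cov cells. It was not called at 250 nM in Ku cells, at -0.35 ± 0.0933 (SE, adjusted p = 0.0113), and it was called in Cov cells, at -1.07 ± 0.10 (SE, adjusted p = 3.31e-05). SF3B5, a small subunit, had the value nearest to 0 of the complex in Cov cells at 250 nM, -1.02 ± 0.0958 (SE, adjusted p = 2.87e-05), against -1.10 ± 0.0598 (SE, adjusted p = 1.65e-05) in Ku cells.
SF3B3, a large subunit of SF3B with many repeats, differed from its neighbours in when it fell. It was at 34.7 and 29.6 FPKM in DMSO, 16.5 and 15.5 at 50 nM and 11.7 and 11.3 at 250 nM in Ku cells, and at 60.5 and 66.0 FPKM in DMSO, 24.6 and 24.8 at 50 nM and 17.4 and 18.2 at 250 nM in Cov cells. Of the log2 change seen at 250 nM, 68.2% was present at 50 nM in Ku cells, where the median subunit had reached 18.2%, and 74.6% in Cov cells, where the median was 57.6%.

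On the spike-in scale the Sm ring had the class median nearest to 0 in both lines, apart from the 3 pseudogene rows in Cov cells (-1.04), whereas under equal-median scaling its medians of 1.24 and 0.99 were the farthest above 0. Its median log2 fold change at 250 nM was -0.72 in Ku and -1.07 in Cov cells, 0.39 and 0.24 above the median of all active genes, and it stayed above under equal-median (0.96 and 0.68) and median-of-ratios scaling (0.73 and 0.52), where its own direction turned above 0. On the spike-in scale it lay 0.66 and 0.47 above with a pseudocount of 0.1, but the difference was -0.22 and -0.37 without a minimum FPKM, when the median of all genes includes those hardly expressed. In Ku cells 4 of the 8 genes were called lower, where 68.6% of all active genes were, and in Cov cells 8 of 8, against 84%. SNRPD2, which pairs with SNRPD1 in the ring, was at 660.3 and 616 FPKM in DMSO, 612 and 594 at 50 nM and 502 and 453 at 250 nM in Ku cells, and at 329.5 and 373 FPKM in DMSO, 219.9 and 231 at 50 nM and 212 and 212 at 250 nM in Cov cells. The treated libraries lay below DMSO in both lines, with the drop in Ku cells coming after 50 nM and the drop in Cov cells nearly complete by 50 nM. The log2 fold change was -0.42 ± 0.0761 (SE, adjusted p = 0.00216) in Ku cells, which was not called, and -0.72 ± 0.0899 (SE, adjusted p = 1.35e-04) in Cov cells.
SNRPN, an Sm protein expressed from the imprinted region of chromosome 15 and sharing exons with SNURF, was at 72.2 and 67.8 FPKM in DMSO, 61.0 and 72 at 50 nM and 51.4 and 47.8 at 250 nM in Ku cells, and at 55.2 and 57.5 FPKM in DMSO, 38.5 and 38.2 at 50 nM and 33.8 and 34.4 at 250 nM in Cov cells. Its log2 fold change at 250 nM was -0.49 ± 0.0955 (SE, adjusted p = 0.00301) in Ku cells, not called, and -0.71 ± 0.0757 (SE, adjusted p = 5.77e-05) in Cov cells. SNRPB, which encodes the B and B′ proteins of the ring, was at 315 and 286 FPKM in DMSO, 271 and 275 at 50 nM and 165 and 157 at 250 nM in Ku cells, and at 382 and 437 FPKM in DMSO, 273 and 276 at 50 nM and 188 and 212 at 250 nM in Cov cells. It fell in both lines, with log2 fold changes of -0.89 and -1.03 at 250 nM and with 50 nM libraries below DMSO in both. SNRPD1 had the lowest value of the ring in both lines, -1.43 ± 0.11 (SE, adjusted p = 4.49e-05) in Ku and -1.35 ± 0.12 (SE, adjusted p = 2.02e-05) in Cov cells.

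Among proteins of a single snRNP, SNRPA, the A protein of U1, had the lowest log2 fold change in Ku cells, -1.40 ± 0.0669 (SE, adjusted p = 1.22e-05), and SNRPA1, the A′ protein of U2, in Cov cells, -1.57 ± 0.0987 (SE, adjusted p = 3.93e-06). SNRPC, the C protein of U1 that contacts the 5′ splice site, was highest in both lines. It was at 162 and 141 FPKM in DMSO, 151 and 149 at 50 nM and 112 and 99.5 at 250 nM in Ku cells, where the 50 nM libraries lay among those of DMSO, and at 229 and 254 FPKM in DMSO, 156 and 172 at 50 nM and 131 and 126 at 250 nM in Cov cells. Its log2 fold change at 250 nM was -0.52 ± 0.0918 (SE, adjusted p = 0.00196) in Ku cells, not called, and -0.90 ± 0.0925 (SE, adjusted p = 4.50e-05) in Cov cells. In Cov cells SNRPA was at -1.28 and in Ku cells SNRPA1 at -1.36, both called.

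The 19 hnRNP genes had medians of -0.96 in Ku and -1.30 in Cov cells at 250 nM, 0.15 and 0.01 above the median of all active genes, and 18 of 19 in Ku (all but HNRNPH2) and 19 of 19 in Cov cells were called lower, against 68.6% and 84% of all active genes. Under equal-median scaling the medians were 1.00 and 0.75, which is 0.72 and 0.44 above all active genes, and under median-of-ratios scaling they lay 0.48 and 0.28 above. On the spike-in scale they lay 0.42 and 0.23 above with a pseudocount of 0.1 and 0.33 and 0.20 above with a minimum of 10 FPKM. Without a minimum FPKM the difference was -0.46 and -0.60, when the median of all genes includes those hardly expressed. HNRNPF (chr10:43881065-43904634), which binds runs of guanines near exons, fell most in both lines. It was at 152 and 141 FPKM in DMSO, 78.0 and 75.4 at 50 nM and 29.2 and 27.4 at 250 nM in Ku cells, and at 248 and 287 FPKM in DMSO, 105 and 114 at 50 nM and 39.1 and 43.5 at 250 nM in Cov cells. The conditions were far apart in both lines and the levels at 250 nM lay below those at 50 nM. At 250 nM the log2 fold change was -2.33 ± 0.0678 (SE, adjusted p = 6.52e-06) in Ku and -2.67 ± 0.11 (SE, adjusted p = 9.62e-07) in Cov cells, and the value in Cov cells was the lowest of all 57 rows. The ratio of HNRNPF to HNRNPK within a library was 0.318 and 0.333 in DMSO, 0.171 and 0.179 at 50 nM and 0.0956 and 0.0963 at 250 nM in Ku cells. The Cov ratio was 0.419 and 0.427 in DMSO, 0.256 and 0.256 at 50 nM and 0.128 and 0.157 at 250 nM, and it was lower in every treated library than in either DMSO library of its line. These genes were chosen as the lowest and highest hnRNP values in Ku cells at 250 nM, which largely fixes this direction there, so the ratio is a description.

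HNRNPK, which binds stretches of cytosines in RNA and DNA, had the value nearest to 0 of the hnRNPs in Ku cells. It was at 478 and 424 FPKM in DMSO, 455 and 420.5 at 50 nM and 306 and 284 at 250 nM in Ku cells, and at 592 and 674 FPKM in DMSO, 409 and 447 at 50 nM and 305 and 277 at 250 nM in Cov cells. At 50 nM its Ku libraries overlapped those of DMSO. The log2 fold change in Ku cells was -0.04 ± 0.0843 (SE, adjusted p = 0.690) at 50 nM, not called, and -0.61 ± 0.0843 (SE, adjusted p = 6.04e-04) at 250 nM. For Cov it was -0.56 ± 0.10 (SE, adjusted p = 0.00151) at 50 nM, not called, and -1.12 ± 0.10 (SE, adjusted p = 2.79e-05) at 250 nM.
HNRNPU (chr1:245003940-245027862), a nuclear matrix protein that binds RNA and chromatin, was the single row of the 57 whose 50 nM libraries both lay above both DMSO libraries in Ku cells, an order that 3.45% of all active genes had. In Cov cells 0 of the 57 rows had it, against 0.674% of all active genes. It was at 218 and 197 FPKM in DMSO, 251 and 229.9 at 50 nM and 136 and 128 at 250 nM in Ku cells, and at 267 and 307 FPKM in DMSO, 183 and 203 at 50 nM and 106 and 101 at 250 nM in Cov cells. In Cov cells the libraries were ordered by dose. At 50 nM the log2 fold change was 0.21 ± 0.0797 (SE, adjusted p = 0.0633) in Ku and -0.57 ± 0.10 (SE, adjusted p = 0.00114) in Cov cells, neither of them called. Both values were above 0 off the spike-in scale, at 0.91 in Ku and 0.65 in Cov cells under equal-median scaling and 0.77 and 0.46 under median-of-ratios scaling, so the difference in direction between the lines belongs to the spike-in scale. At 250 nM HNRNPU fell in both lines, with log2 fold changes of -0.65 and -1.46.

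**Figure D3:**
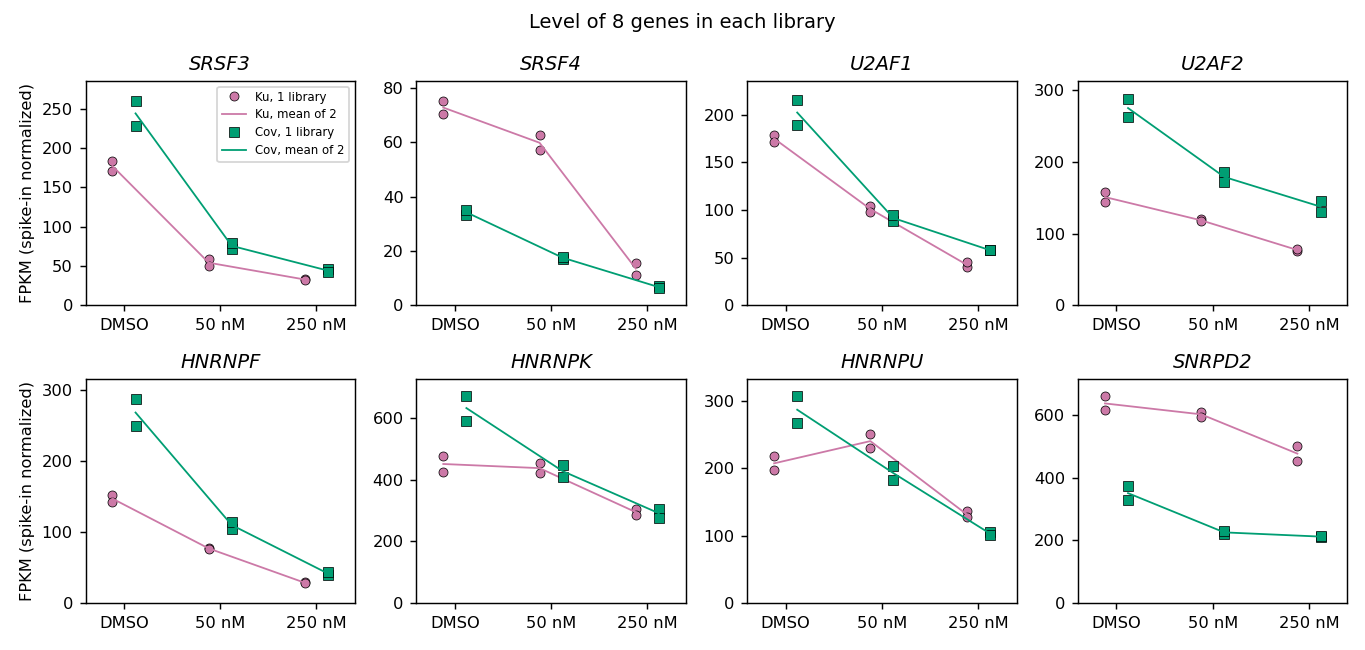
Spike-in normalized FPKM (y axis, from 0) of 8 genes in DMSO and at 50 and 250 nM THZ1 (x axis), with 1 point per library, circles for Ku and squares for Cov cells, and lines through the means of 2 libraries. SRSF3 drops mostly by 50 nM in both lines, SRSF4 and HNRNPK drop mostly between 50 and 250 nM in Ku cells, HNRNPU lies above DMSO at 50 nM in Ku cells, and SNRPD2 keeps the largest share of its DMSO level of the 8. Apart from SRSF3, SRSF4 and HNRNPF at 250 nM, and U2AF1 in Ku cells, the directions at 250 nM turn under equal-median scaling.

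The abundant hnRNPs fell by less than HNRNPF. HNRNPA1, a repressor of many exons, was at 563 and 483 FPKM in DMSO, 369.7 and 319 at 50 nM and 298 and 282 at 250 nM in Ku cells, and at 1061 and 1225 FPKM in DMSO, 588 and 657 at 50 nM and 486 and 471 at 250 nM in Cov cells. HNRNPA2B1 was at 552 and 544 FPKM in DMSO, 383 and 339 at 50 nM and 299 and 270.3 at 250 nM in Ku cells, and at 585 and 679 FPKM in DMSO, 379.9 and 418 at 50 nM and 312 and 312 at 250 nM in Cov cells. HNRNPC, which packages pre-mRNA at stretches of uridines, was at 406 and 367 FPKM in DMSO, 328 and 299 at 50 nM and 232 and 203 at 250 nM in Ku cells, and at 438 and 494 FPKM in DMSO, 276 and 302 at 50 nM and 219 and 211 at 250 nM in Cov cells. For all 3 genes the treated libraries lay below DMSO and were ordered by dose in both lines. The log2 fold changes at 250 nM in Ku cells were -0.84 ± 0.11 (SE, adjusted p = 3.85e-04) for HNRNPA1, -0.94 ± 0.0844 (SE, adjusted p = 8.76e-05) for HNRNPA2B1 and -0.83 ± 0.0942 (SE, adjusted p = 2.49e-04) for HNRNPC. In Cov cells they were -1.25, -1.01 and -1.11, all called. HNRNPA0, an intronless relative, kept 23.8% of its DMSO level in Ku and 32.3% in Cov cells at 250 nM. HNRNPD (AUF1), which binds AU-rich elements and speeds mRNA decay, kept 36.3% and 31.3%, and had reached 76.5% and 75.4% of its log2 change at 50 nM. The pseudogene row HNRNPA3P1, at 8.28 and 9.35 FPKM in DMSO in Ku cells, had the value nearest to 0 of the hnRNP rows in Cov cells, -0.99, and -1.07 in Ku cells.

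Dose and line were compared gene by gene without a test, because the lines were normalized separately. DMSO lay above 50 nM and 50 nM above 250 nM in every library for 40 of the 57 rows in Ku cells, where 66.7% of all active genes had this order, and for 57 of 57 in Cov cells, against 73.8%. All 57 rows had both 250 nM libraries below both DMSO libraries in each line, as had 95.9% of all active genes in Ku and 95.6% in Cov cells. At 50 nM, 42 lay below DMSO in Ku cells (75.8% of all active genes), 14 overlapped and 1 lay above, and 57 lay below in Cov cells (95.7%). The share of the 250 nM log2 change that was present at 50 nM had a median of 31.4% in Ku and 62% in Cov cells over the 54 genes without pseudogene rows. It was highest for SRSF10 in Ku cells, at 79.1%, and was 56.2% for the median SR gene, 39.7% for the median hnRNP and 22.4% for the median gene of the Sm ring. In Cov cells the class medians lay closer together, from 57% to 65.8%. The genes kept much of their order between the lines: across the 54 genes, which are not independent replicates, the log2 fold changes of Ku and Cov cells gave a Pearson r of 0.815 with a Spearman rho of 0.715 for 250 nM, and 0.85 with 0.768 for 50 nM. Gene length, number of exons, mRNA length and DMSO level were related to the change at 250 nM across 53 genes (without HNRNPA1L2) with a Pearson r between -0.324 and 0.244 and a Spearman rho between -0.374 and 0.277.

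The makeup of the splicing factor transcripts within a library does not depend on the scaling. Shares were taken of the summed FPKM of 54 genes, a set that differs from the 54 above. It leaves out HNRNPA1L2 as well as the pseudogene rows, and takes in HNRNPCL1, which was not active. The SR genes made up 13.5% and 13.7% in DMSO, 10.2% and 9.88% at 50 nM and 7.84% and 9.23% at 250 nM of this sum in Ku cells. In Cov cells their share was 11.7% and 11.7% in DMSO, 9.23% and 9.34% at 50 nM and 8.03% and 7.98% at 250 nM. No treated library reached the share of a DMSO library, and the replicates of 250 nM in Ku cells differed from each other more than those of any other condition. The Sm ring made up 18.8% and 19.0% in DMSO, 21.3% and 21.8% at 50 nM and 24.1% and 23.0% at 250 nM in Ku cells. Its Cov share was 18.1% and 18.2% in DMSO, 20.3% and 20.4% at 50 nM and 22.1% and 21.8% at 250 nM. The share of the Sm ring was thus higher at each dose, without overlap between the conditions in either line. The hnRNPs held 48.3% to 50% in Ku and 50.1% to 50.8% in Cov libraries. Together the 54 genes made up 0.742% to 0.8% of the FPKM of all genes in DMSO, 0.721% to 0.746% at 50 nM and 0.726% to 0.756% at 250 nM for Ku, where the 3 conditions overlapped. For Cov they made up 0.795% to 0.802% in DMSO, 0.639% to 0.674% at 50 nM and 0.671% to 0.687% at 250 nM, so that both doses lay below DMSO and overlapped each other.

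**Figure D4:**
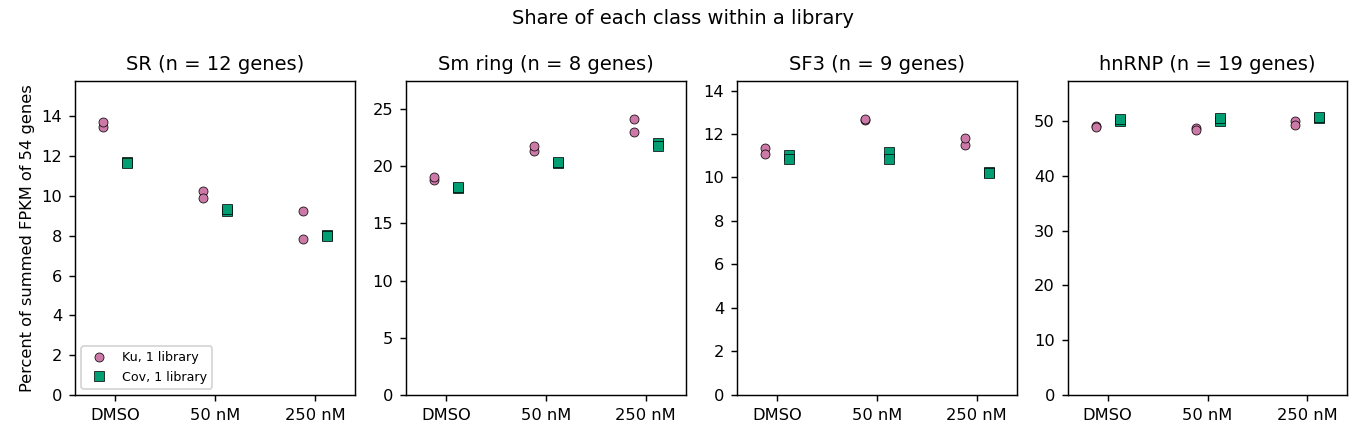
Percent of the summed FPKM of 54 genes (y axis, from 0) that belonged to SR, Sm ring, SF3 and hnRNP genes in DMSO and at 50 and 250 nM (x axis), with 1 point per library, circles for Ku and squares for Cov cells. The 54 genes leave out the pseudogene rows and HNRNPA1L2 and include the inactive HNRNPCL1. The SR share goes from 13.5% and 13.7% to 7.84% and 9.23% in Ku cells and the Sm ring share goes from 18.8% and 19.0% to 24.1% and 23.0%, and these shares are the same under every scaling of whole libraries.

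Other genes of the spliceosome were taken from a list of 124 genes in 8 groups, of which 123 were matched (LSM8 was not) and all 123 were active. At 250 nM, 110 of 123 were called lower in Ku and 122 in Cov cells, with medians of -1.29 and -1.58, beside 68.6% and 84% of all active genes with medians of -1.11 and -1.31. At 50 nM 7 and 101 were called lower, with medians of -0.28 and -0.82, beside 11.3% and 70.5% of all active genes. The 7 became 0 or 1 without any 1 Ku library, and the 101 became 34 without DMSO replicate 2 and 69 with the replicate block. By limma 0 were called higher on the spike-in scale, and at an unadjusted p under 0.05 2 were higher at 50 nM in Ku and 1 in Cov cells. Under equal-median scaling 5 were lower and 52 higher at 250 nM in Ku and 8 lower and 43 higher in Cov cells, and under median-of-ratios scaling 15 lower and 20 higher and 20 lower and 10 higher. The shares of all active genes were 11.6% lower and 26.9% higher in Ku and 11.3% and 26.4% in Cov cells under the first, and 19% and 11.1%, and 18.9% and 8.57%, under the second. By group, the medians at 250 nM were highest for the LSm ring, which binds U6, at -0.88 in Ku and -1.08 in Cov cells, and lowest for factors of the catalytic steps and for SR-like proteins and SR kinases, at -1.44 in Ku and -1.86 in Cov cells for both groups. The lowest values were those of CWC22, which loads the exon junction complex, at -2.60, and the poly(C)-binding protein PCBP1, at -2.60, in Ku cells, and of RSRC2, a protein rich in arginine and serine, at -3.86, and RBM5, at -3.63, in Cov cells, all called. ARGLU1, a co-regulator of splicing, was at 58.1 and 54.2 FPKM in DMSO, 81.3 and 72.7 at 50 nM and 35.4 and 43.9 at 250 nM in Ku cells, and at 48.1 and 54.2 FPKM in DMSO, 64.4 and 69.2 at 50 nM and 38.3 and 37.0 at 250 nM in Cov cells. Its 50 nM libraries lay above DMSO in both lines and its 250 nM libraries below, with log2 fold changes at 250 nM of -0.50 and -0.43, neither called. The other values nearest to 0 were those of ESRP1 in Ku cells (-0.17, from 0.332 and 0.279 FPKM in DMSO to 0.190 and 0.137 FPKM, so low that adding 1 holds its value near 0) and LSM7 in Cov cells (-0.73, called).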

How the data were processed

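Per the labels and the study's methods, RNA from equal numbers of Ku and Cov cells received ERCC RNA before stranded poly(A) libraries were made and read as single ends of 75 bases. The authors used HiSat for alignment (hg19), obtained FPKM from cuffquant with cuffnorm, and applied a spike-in normalization. Each line has its own table of deposited FPKM without counts, so the study's edgeR test was not used here and the depth is unknown. All value columns were used. Levels were transformed as log2(FPKM + 1) for the 14251 genes above 1 FPKM in at least 1 of 12 libraries, without ERCC rows, and fitted per line with limma 3.58.1 in R 4.3.3 (lmFit, eBayes with trend, two-sided, 3 groups of 2 libraries), with Benjamini-Hochberg adjustment over these genes. Calls required adjusted p < 0.001 together with a log2 fold change past 0.5 in either direction. On simulated data with few changed genes this fit called most of the changes at an adjusted p under 0.05 but few at 0.001. Far more genes were called in these data, so the simulation does not give the share missed here. A gene that was not called may still have changed. Ratios, shares and percentages of DMSO come from untransformed FPKM and have no test.

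Samples were grouped by the line and dose in their labels. The members, the list of other splicing genes and the rule for named genes were chosen with earlier results of these data known. That rule names 12 genes by symbol, the lowest and highest log2 fold change of each class at 250 nM, members called higher and inactive members. SRSF4 to SRSF11, HNRNPA0, HNRNPD, HNRNPU, HNRNPR, HNRNPH2 and SF3B3 fall outside it and were named after their values were seen. Positions are from GENCODE v44 lifted to GRCh37, and SF3B14 was matched to SF3B6 by its RefSeq synonym. Alternatives were a pseudocount of 0.1, a minimum of 10 FPKM or none, equal-median and median-of-ratios scaling, only the 2 groups compared, a replicate block, eBayes without trend, an adjusted p threshold of 0.05, a fold threshold of 1 on the log2 scale and each library left out. Plots used Python 3.11.15 and matplotlib 3.10.9.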

Additional observations from a re-analysis of the deposited data

Results flagged for a closer look

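On the spike-in scale HNRNPU differed in direction between the 2 lines at 50 nM, where both Ku libraries lay above both DMSO libraries and both Cov libraries below theirs. Its log2 fold change was 0.21 in Ku and -0.57 in Cov cells. Neither value was called by limma (adjusted p = 0.0633 and 0.00114), and the difference between the lines was not tested. The difference in direction was absent under equal-median scaling (0.91 in Ku and 0.65 in Cov cells) and under median-of-ratios scaling (0.77 and 0.46), where again neither line was called.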

How the results depend on the processing

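Counts of members called lower are given in the order Ku 50 nM, Ku 250 nM, Cov 50 nM and Cov 250 nM against DMSO, then 250 against 50 nM in Ku and Cov cells, and were 11, 47, 47, 56, 28 and 15. Equal-median scaling gave 0, 0, 0, 1, 0 and 0 lower, and 29 higher in Ku and 34 in Cov cells at 250 nM against DMSO and 4 and 1 against 50 nM. Median-of-ratios scaling gave 1, 6, 0, 5, 0 and 2 lower, and 11 higher at 250 nM against DMSO in each line. At a log2 fold change beyond 1 the counts were 5, 30, 12, 50, 9 and 3, and at an adjusted p under 0.05 26 at 50 nM in Ku and 25 for 250 against 50 nM in Cov cells. Without a minimum FPKM they were 0 for Ku 50 nM and 11 and 6 for 250 against 50 nM in Ku and Cov cells, and for Ku 50 nM 0 with only the 2 groups compared and 6 without trend. The numbers shared by libraries did not pair them, since their deviations across genes correlated at -0.0703 to 0.0282, and with the replicate block the counts were 15, 51, 29, 55, 34 and 4. Leaving out 1 library at a time gave 0 to 0, 34 to 47, 19 to 43, 54 to 56, 5 to 22 and 4 to 11, with 0 higher throughout by limma. The lone library then left in a condition is assumed to vary like the other conditions. Of the 57 members, 39 to 51 changed sign under equal-median scaling, depending on the comparison, 29 to 45 under median-of-ratios scaling, and 0 to 3 with a library left out. Single genes were to be traced in all 6 comparisons, but only 90 log2 fold changes were, a reduction made after seeing how many reversed. Of their values under the alternatives 1031 kept direction and call, 103 lost the call, 6 gained it and 117 reversed.

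Under equal-median scaling the reversed log2 fold changes at 250 nM in Ku cells were SRSF1 0.0078, SRSF2 0.16, HNRNPA1 1.14, HNRNPA2B1 1.04, HNRNPC 1.15, HNRNPK 1.37, SF3B1 1.19, U2AF2 1.00, SNRPB 1.08, SNRPN 1.46, SF3B14 1.62, SNRPD1 0.52, SNRPD2 1.56, SNRPA 0.54, SNRPC 1.45, SF3B4 0.33, SF3B5 0.86, HNRNPA3P1 0.62, SNRPA1 0.58, SRSF6 0.38, SRSF7 0.21, SRSF9 1.00, SRSF10 0.64, HNRNPD 0.52, HNRNPU 1.32, HNRNPR 1.18, SF3B3 0.48, ARGLU1 1.44 and ESRP1 0.21. In Cov cells they were SRSF2 0.35, HNRNPA1 0.82, HNRNPA2B1 1.06, HNRNPC 0.96, HNRNPK 0.96, SF3B1 0.45, U2AF1 0.27, U2AF2 1.07, SNRPB 1.04, SNRPN 1.32, SF3A2 0.42, SF3B14 0.99, SRSF12 0.16, SNRPD1 0.69, SNRPD2 1.35, SNRPA 0.77, SNRPC 1.16, SF3B4 0.0849, SF3B5 1.03, HNRNPA3P1 0.82, SNRPA1 0.49, SRSF5 0.20, SRSF7 0.20, SRSF9 0.98, SRSF10 0.44, HNRNPD 0.40, HNRNPA0 0.44, HNRNPU 0.60, HNRNPR 0.70, SF3B3 0.24, LSM7 1.33 and ARGLU1 1.60. At 50 nM they were SRSF4 0.41 and HNRNPK 0.66 for Ku and SRSF4 0.24, HNRNPU 0.65, U2AF1 0.081 and HNRNPK 0.66 for Cov. Under median-of-ratios scaling they were HNRNPA1 0.61, HNRNPA2B1 0.51, HNRNPC 0.63, HNRNPK 0.84, SF3B1 0.67, U2AF2 0.49, SNRPB 0.56, SNRPN 0.95, SF3B14 1.10, SNRPD1 0.0038, SNRPD2 1.04, SNRPA 0.0291, SNRPC 0.93, SF3B5 0.35, HNRNPA3P1 0.17, SNRPA1 0.0665, SRSF9 0.48, SRSF10 0.13, HNRNPU 0.80, HNRNPR 0.66, ARGLU1 0.93 and ESRP1 0.11 for Ku at 250 nM and HNRNPA1 0.36, HNRNPA2B1 0.60, HNRNPC 0.50, HNRNPK 0.50, U2AF2 0.61, SNRPB 0.58, SNRPN 0.87, SF3B14 0.54, SRSF12 0.0478, SNRPD1 0.24, SNRPD2 0.89, SNRPA 0.31, SNRPC 0.70, SF3B5 0.58, HNRNPA3P1 0.42, SNRPA1 0.0308, SRSF9 0.53, HNRNPU 0.14, HNRNPR 0.24, LSM7 0.87 and ARGLU1 1.15 for Cov. At 50 nM they were SRSF4 0.27 and HNRNPK 0.52 in Ku and SRSF4 0.0605, HNRNPU 0.46 and HNRNPK 0.47 in Cov cells. HNRNPK in Ku cells at 50 nM ran from -0.13 to 0.043 with a library left out, above 0 without DMSO replicate 1 and, at 0.015, without 50 nM replicate 2. Depth is unknown, and 2 libraries per condition limit every error given here.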
